A study of Triticum monococcum with 54 samples.

Results

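The 150 genes described here were the steadiest in level through the development of unfertilised (N-S-) einkorn grain, out of 2129 candidates drawn from 32047 accessions in the deposited tables. They were chosen on that measurement itself: for each gene the mean normalized count was taken at each of 6 stages of N-S- grain, and the genes were ranked by the coefficient of variation (CV) of those 6 means, the standard deviation divided by the mean. Candidates were accessions listed in the N-S- table and absent from the N+S- table as used here (13739 accessions, which form 1 block at the end of the list), outside the 60 with the highest stage mean and with a mean of at least 20 at every stage. The N+S- table as used here stops at its 18308 accessions, just before that block, so absence from it may reflect the extent of the table, and the candidates stand for no more than the later part of the list. Their steadiness in N-S- grain is therefore a description, and the grain given both nutrients (N+S+), which did not enter the choice, is where it was measured independently.

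Einkorn (Triticum monococcum) is a diploid wheat. Whole grains of 1 accession, ERGE 35821, grown in a greenhouse, were profiled by strand-specific sequencing of polyadenylated RNA in 54 libraries, 18 groups of 3 biological replicates. Stages are given in thermal time after anthesis, in degree-days (°Cd). Nutrients were supplied from 200 to 700 °Cd: N-S- plants received neither nitrogen nor sulfur, N+S+ plants 6 mM nitrogen with 2 mM sulfur, N+S- plants 6 mM nitrogen alone, and N-S+ plants 0.5 mM nitrogen with 2 mM sulfur. N-S- grain was sampled at 100, 200, 300, 400, 500 and 600 °Cd (18 libraries) and N+S+ grain from 300 to 600 °Cd (12 libraries); the first N-S- samplings, at 100 and 200 °Cd, precede or coincide with the start of the supply. The other treatments were not used for measurements here.

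A cereal grain passes from a phase of cell division to one of filling, when transcripts of storage proteins come to make up a large part of the messenger RNA and the share left for other transcripts shrinks. Genes that keep an even level through such a change are commonly sought as reference genes, against which other transcripts are measured. Many such genes in plants serve basic upkeep of the cell, such as protein turnover, transport or RNA handling. The files pair these accessions with no gene name or function, so the genes are given by identifier only, and the identity of the tissue could not be checked by marker genes.

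Library totals ran from 1344965 to 5356417 counts in N-S- grain and from 2005218 to 3890332 in N+S+ grain, and the 150 genes held 30603 to 61073 counts in each N+S+ library. The lowest count of any of the 150 in an N+S+ library was 13. No 2 replicates were identical. Replicates of N-S- grain at 500 °Cd correlated least (0.826 to 0.850), and every other group used reached 0.908 or more. In N+S+ grain the 300 °Cd libraries were run on sequencing lane 3, those of 400 °Cd on lane 4 and those of 500 and 600 °Cd on lane 5, so that stage and lane cannot be told apart except between 500 and 600 °Cd. N-S- and N+S+ libraries shared a lane at 300, 400 and 600 °Cd and not at 500 °Cd.

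In N-S- grain, where they were chosen, the 150 genes had CVs of stage means from 3.71% to 12.3%, with a median of 10.4%, against a median of 25.4% over the 2129 candidates. The steadiest, TmLoc033987, had mean normalized counts of 218.4, 200.8, 217.1, 213.4, 221.8 and 222.5 from 100 to 600 °Cd. TmLoc029717, TmLoc035200, TmLoc032415 and TmLoc038583 followed, with N-S- CVs of 3.97%, 4.51%, 4.69% and 5.36%. The boundary of the list was not a gap. The last 3 genes inside it, TmLoc027899, TmLoc030256 and TmLoc038023, had N-S- CVs of 12.25%, 12.26% and 12.27%, and the first 3 outside, TmLoc028492, TmLoc034795 and TmLoc032474, had 12.31%, 12.31% and 12.32%. In N+S+ grain the CVs of those 3 inside were 11.2%, 12.5% and 7.89%, and of those 3 outside 17.3%, 8.35% and 9.24%, so the sets overlapped there.

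In N+S+ grain the 150 genes varied less between stages than most candidates did. Their CV over the 4 N+S+ stage means had a median of 11.8% (quartiles 7.88% and 15.8%, range 1.72% to 40.3%), against 17.8% over the candidates. For 128 of the 150 (85.3%) the N+S+ CV lay below the candidates' median. A CV under 10% was measured for 59 of the 150, against 389 of the 2129 candidates (18.3%). A CV under 20% was measured for 135 of the 150, against 1217 candidates (57.2%). The highest N+S+ stage mean exceeded the lowest by a median factor of 1.3, against 1.5 in the candidates, and by less than 1.5-fold in 128 genes (85.3%, against 50.2% of candidates). In 2 genes, TmLoc028803 and TmLoc032392, that factor was 2 or more. Because whole grain was sampled, a change in the number of cells of a type and a change in RNA per cell cannot be told apart in any of these levels.

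**Figure D1:**
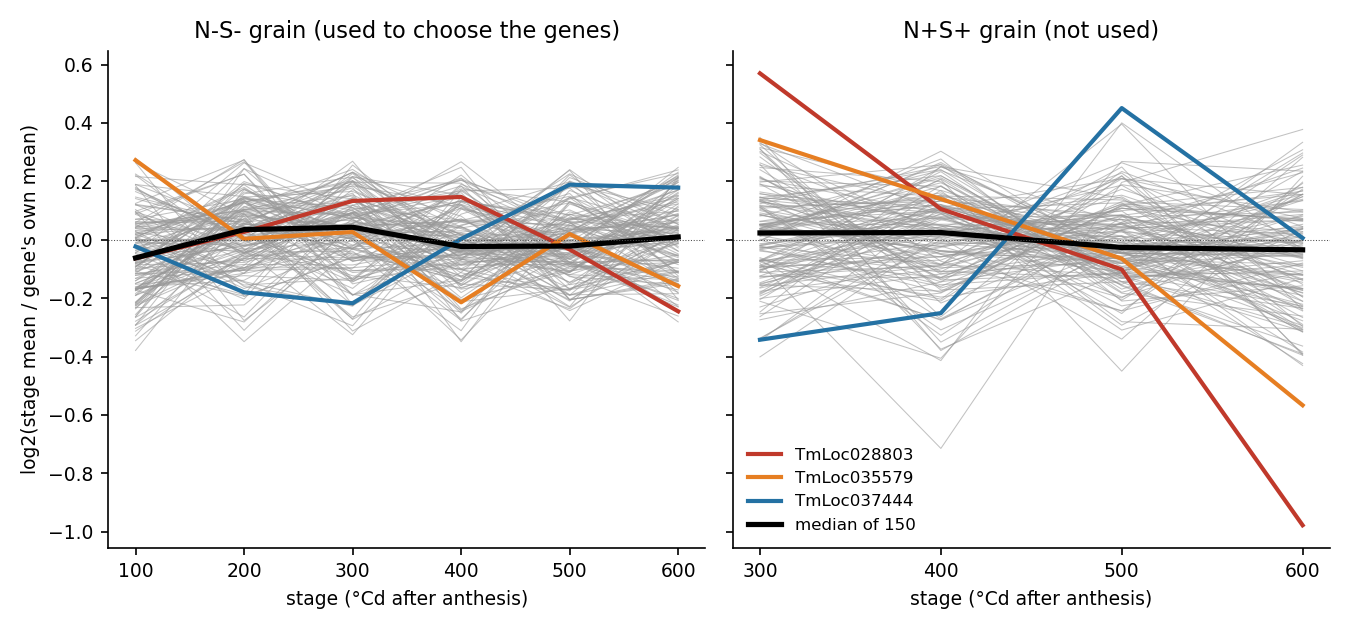
Stage means of each of the 150 genes (grey lines) as the log2 ratio to the gene's own mean (y axis) against stage in °Cd after anthesis (x axis), in N-S- grain (left), which chose the genes, and in N+S+ grain (right), which did not; the black line is the median of the 150 and 3 genes called across N+S+ stages are coloured. The median line stays near 0 in both panels, and TmLoc028803 lies above the other lines at 300 °Cd and lowest at 600 °Cd in N+S+ grain.

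The variation between stage means was smaller than the spread of single replicates and larger than that of means of 3. Within N+S+ groups of 3, single libraries had a median CV of 14.3% for the 150 genes and 15.3% for the candidates, so the chosen genes were not much quieter between replicates. The between-stage CV was below the replicate CV for 107 of the 150 (71.3%), against 40.5% of candidates. A mean of 3 libraries varies less than a single library, with a median replicate CV of 8.24% for the 150 genes. Against that stricter measure the between-stage CV was lower in 33 genes (22%), and in 15.1% of candidates.

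The relation between the treatments was graded over the candidates and was not seen within the chosen list. When the 2129 candidates were cut into 10 bands of nearly equal size by N-S- CV, the median N+S+ CV rose from 12.0% in the steadiest band through 14.0% in band 3 and 17.3% in band 5 to 39.8% in the last. The median replicate CV in N+S+ grain stayed between 14.5% and 16.7% in all 10 bands. Across candidate genes, which are not independent replicates, Spearman's rho between the N-S- and the N+S+ CV was 0.540 (n = 2129). Within the 150, whose N-S- CVs span a narrow range, it was 0.025. Both treatments share lanes at 300, 400 and 600 °Cd; the part of lane in this relation was not tested. When the same rule was run on N+S+ grain, 25 of the 150 (16.7%) were among its 150 steadiest genes, which are 7.05% of the 2127 accessions that passed the rule's filters there.

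**Figure D2:**
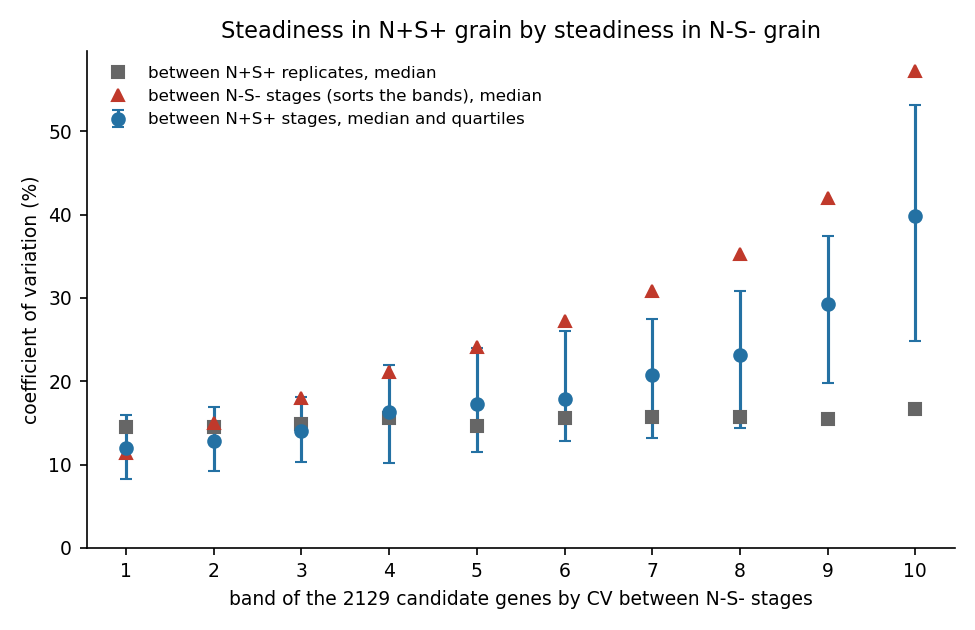
CVs in percent (y axis) for the 2129 candidates in 10 bands by their N-S- CV (x axis), with circles for the median CV of N+S+ stage means and bars for its quartiles, squares for the median replicate CV in N+S+ grain and triangles for the median N-S- CV that sorts the bands. The median N+S+ between-stage CV climbs from 12.0% to 39.8%, while the replicate CV remains between 14.5% and 16.7%.

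Few of the 150 passed a test for change between stages. In edgeR's quasi-likelihood test across the 4 N+S+ stages, with Benjamini-Hochberg adjustment over all 13625 accessions tested, 15 of the 150 (10%) were called at an adjusted p under 0.05, where 40.2% of all accessions tested and 46.5% of the 2129 candidates were called. All 150 passed the filter on low counts in this fit. At an unadjusted p under 0.05 the number was 29 (19.3%, against 47.7% of all accessions tested). Without the 300 °Cd library of replicate 1, or that of replicate 2, 8 of the 15 were called. Of the 15, 10 were lower at 600 than at 300 °Cd and 5 were higher.

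Between the ends of the series, from 300 to 600 °Cd, 16 of the 150 were called (10.7%, against 43.2% of all accessions tested), 12 lower and 4 higher at 600 °Cd. Over all accessions tested 21.9% were called lower and 21.3% higher. Of these 16 genes, 11 were also among the 15 called across stages. The median size of the log2 difference from 300 to 600 °Cd was 0.22 for the 150 genes, 0.46 for the candidates and 0.67 for all accessions tested, and the median standard error for the 150 was 0.18. Of the 150 estimates 71 were above 0, with a median of -0.03 and a range from -1.53 to 0.57. The balance of signs and calls moved with the scaling. With library totals alone 57 estimates were above 0, with a median of -0.09 (all accessions, -0.08), and 2 genes were called higher and 18 lower. With the authors' scaling, 65 were above 0, with a median of -0.06 (all accessions, -0.05), and 4 were called higher and 17 lower. The shares of all accessions called higher and lower with these other scalings are not given here. These splits are therefore not read as particular to the 150.

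Between neighbouring stages the calls were rarer still. From 300 to 400 °Cd 3 of the 150 were called (7.62% of all accessions tested were), from 400 to 500 °Cd 2 (8.1% of all) and from 500 to 600 °Cd, the pair of stages on the same lane, 1 (10.2% of all). At an unadjusted p under 0.05 these numbers were 13, 14 and 16 (8.67%, 9.33% and 10.7%, against 18.9%, 21.2% and 23.5% of all accessions tested). These 6 genes were TmLoc026995 (higher), TmLoc042956 and TmLoc035484 (both lower) at 400 against 300 °Cd, TmLoc032458 and TmLoc037444 (both higher) at 500 against 400 °Cd, and TmLoc028803 (lower) at 600 against 500 °Cd; the first 4 of these names were chosen after their values were seen. Single libraries changed these numbers, which ranged from 1 to 3, from 0 to 4 and from 0 to 5 when each N+S+ library was left out in turn.

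**Figure D3:**
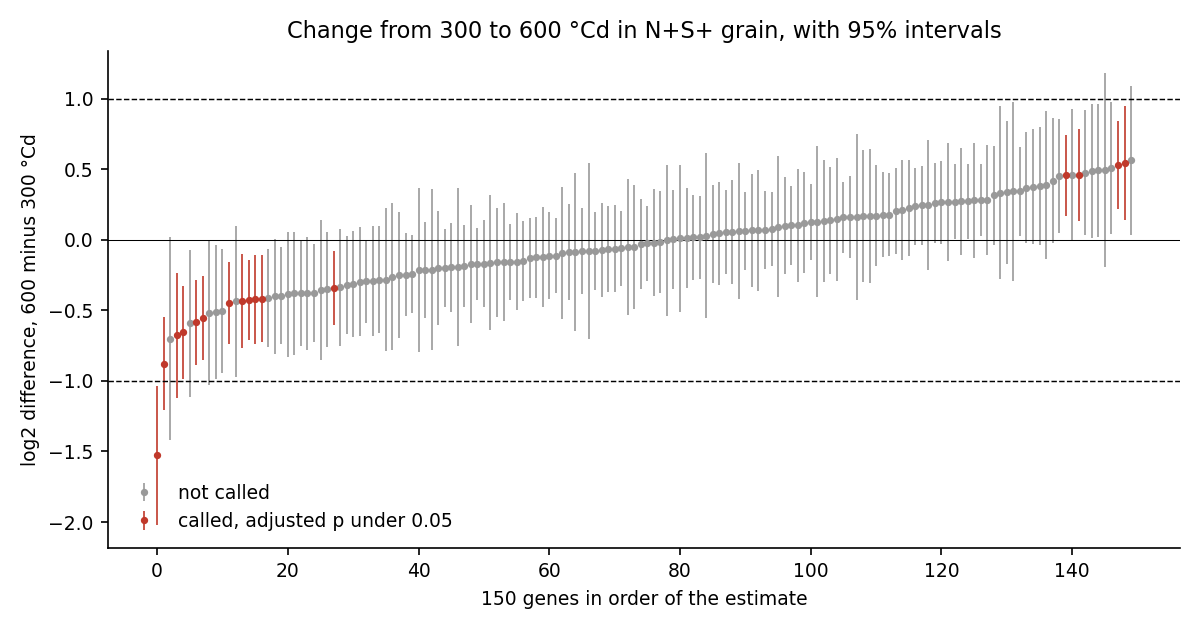
Estimated log2 difference, 600 minus 300 °Cd in N+S+ grain, of the 150 genes in order of the estimate (x axis), with 95% intervals from the edgeR fit as vertical lines; red marks the 16 genes called in this contrast and dashed lines mark 2-fold in either direction. Most intervals lie between the dashed lines, and TmLoc028803, at -1.53, lies lowest.

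A p that misses the threshold does not show that a level did not change, so the interval of each difference was also read. For 142 of the 150 (94.7%) the whole 95% interval of the difference from 300 to 600 °Cd lay within 2-fold in either direction, against 59.9% of candidates and 28.7% of all accessions tested. A bound of 1.5-fold was met by 71 (47.3%), against 20.9% of candidates. For 122 of the 150 (81.3%) the intervals of all 6 pairs of N+S+ stages lay within 2-fold, against 49.2% of candidates and 18.7% of all accessions tested. The other 28 had fewer reads: their median count summed over the 12 libraries was 902.5, against 2350.5 for the 122, and 24 of the 28 were not called across stages. The count of genes that met the 2-fold bound for all pairs and were not called was 111 (74%), against 41.7% of candidates.

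The genes with the lowest N+S+ CV were picked for close stage means in these same libraries. Their close means and overlapping stages follow largely from that choice and are a description only. TmLoc036690 had a between-stage CV of 1.72%, with normalized counts of 53.25, 67.76 and 58.64 at 300 °Cd, 78.18, 54.55 and 52.27 at 400 °Cd, 63.16, 64.45 and 58.98 at 500 °Cd, and 60.73, 49.62 and 71.29 at 600 °Cd. Every stage overlapped every other, and the replicate CV was 16.1%. That replicate CV is of single libraries, which vary more than stage means do, so it is not a like measure for the between-stage CV. The log2 difference of TmLoc036690 from 300 to 600 °Cd was 0.06, with a 95% interval from -0.31 to 0.42.

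TmLoc029270, with an N+S+ CV of 1.94%, had normalized counts of 119.30, 123.23 and 117.56 at 300 °Cd, 104.07, 111.74 and 137.44 at 400 °Cd, 128.82, 102.39 and 125.05 at 500 °Cd, and 117.77, 92.75 and 133.53 at 600 °Cd. TmLoc035381, with an N+S+ CV of 3.09%, had 98.16, 119.40 and 100.33 at 300 °Cd, 114.43, 104.26 and 94.85 at 400 °Cd, 99.31, 99.19 and 97.68 at 500 °Cd, and 95.20, 114.48 and 103.54 at 600 °Cd. In both genes the ranges of all 4 stages overlapped, and replicates at 500 °Cd were tight for TmLoc035381 only. TmLoc027278 and TmLoc031051 completed the 5 steadiest, with N+S+ CVs of 2.30% and 3.03%. All 5 met the 2-fold bound for every pair of stages, which their choice by low CV in these same libraries made likely.

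The 5 genes steadiest in N-S- grain were not those 5. TmLoc033987 had N+S+ means of 167.3 ± 11.1, 170.0 ± 23.6, 201.1 ± 10.9 and 175.2 ± 12.4 normalized counts (SD, n = 3) from 300 to 600 °Cd and an N+S+ CV of 8.69%. TmLoc035200 had 713.8 ± 83.2, 764.8 ± 51.9, 750.7 ± 11.3 and 666.5 ± 60.7 (SD, n = 3) and an N+S+ CV of 6.07%. TmLoc032415 had an N+S+ CV of 6.81%. TmLoc029717 and TmLoc038583, with low counts, had N+S+ CVs of 11.7% and 16.0%, and neither met the 2-fold bound for every pair. None of these 5 was called across N+S+ stages by edgeR's quasi-likelihood test, with adjusted p-values from 0.302 to 0.649.

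TmLoc028803 was the clearest exception to steadiness in N+S+ grain. Its normalized counts were 116.43, 120.50 and 144.79 at 300 °Cd, 91.65, 95.90 and 89.04 at 400 °Cd, 83.94, 74.05 and 81.64 at 500 °Cd, and 65.65, 18.48 and 46.40 at 600 °Cd. Each stage lay wholly below the one before it. The log2 difference from 300 to 600 °Cd was -1.53 ± 0.24 (SE), with an adjusted p of 1.1e-05 for that contrast and 0.000122 across the 4 stages (edgeR quasi-likelihood, Benjamini-Hochberg). Within lane 5, from 500 to 600 °Cd, it fell by 0.88 on the log2 scale, with an adjusted p of 0.0223 by the same test. The library at 18.48 weighs on the size, and leaving out each library in turn moved the 300 to 600 °Cd estimate between -1.92 and -1.17, with the call across stages kept each time. In N-S- grain, which chose the gene, its stage means were 119.2, 126.9, 136.6, 137.9, 121.7 and 105.1.

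TmLoc035579 also had a lower mean at each later stage of N+S+ grain. Its normalized counts were 104.16, 82.79 and 101.44 at 300 °Cd, 80.26, 85.78 and 84.69 at 400 °Cd, 73.14, 69.94 and 74.56 at 500 °Cd, and 58.68, 52.54 and 42.44 at 600 °Cd. The first 2 stages overlapped, and the later ones each lay below the one before. Its log2 difference from 300 to 600 °Cd was -0.88 ± 0.16 (SE), with an adjusted p of 7.2e-05 for that contrast and 0.000513 across stages (edgeR quasi-likelihood).

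TmLoc035568, TmLoc029127 and TmLoc029467 were lower in the later stages as well. TmLoc035568 had normalized counts of 134.96, 135.80 and 131.45 at 300 °Cd, 108.73, 134.17 and 120.02 at 400 °Cd, 93.91, 92.79 and 79.28 at 500 °Cd, and 86.58, 98.59 and 76.10 at 600 °Cd. TmLoc029127 had 210.15, 180.06 and 212.61 at 300 °Cd, 189.51, 217.75 and 220.68 at 400 °Cd, 166.22, 142.62 and 162.33 at 500 °Cd, and 157.57, 129.39 and 114.01 at 600 °Cd. In both genes the libraries of 300 and 400 °Cd overlapped, and all lay above those of 500 and 600 °Cd, which overlapped each other. TmLoc029467 had 86.67, 91.53 and 71.15 at 300 °Cd, 74.56, 71.26 and 66.30 at 400 °Cd, 61.08, 54.85 and 62.29 at 500 °Cd, and 48.01, 58.37 and 47.81 at 600 °Cd. For this gene neighbouring stages overlapped, except that 500 °Cd lay below 400 °Cd. The log2 differences from 300 to 600 °Cd were -0.58 ± 0.15, -0.55 ± 0.14 and -0.65 ± 0.16 (SE) in that order, with adjusted p-values across stages of 0.00195, 0.00201 and 0.00798 (edgeR quasi-likelihood). All 3 met the 2-fold bound for every pair of stages despite their calls.

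TmLoc037444 had its highest mean at 500 °Cd. Its normalized counts were 33.15, 34.97 and 33.63 at 300 °Cd, 29.00, 43.11 and 36.30 at 400 °Cd, 44.88, 77.71 and 53.79 at 500 °Cd, and 47.60, 39.24 and 42.72 at 600 °Cd. The libraries of 500 °Cd all lay above those of 300 and 400 °Cd. From 400 to 500 °Cd it rose by 0.68 ± 0.21 (SE) on the log2 scale, with an adjusted p of 0.0454, and across stages the adjusted p was 0.00925 (edgeR quasi-likelihood). Without the 500 °Cd library at 77.71 the adjusted p across stages was 0.131, so this call rests on that library. The difference from 300 to 600 °Cd was 0.38 ± 0.20 (SE), with an adjusted p of 0.133.

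**Figure D4:**
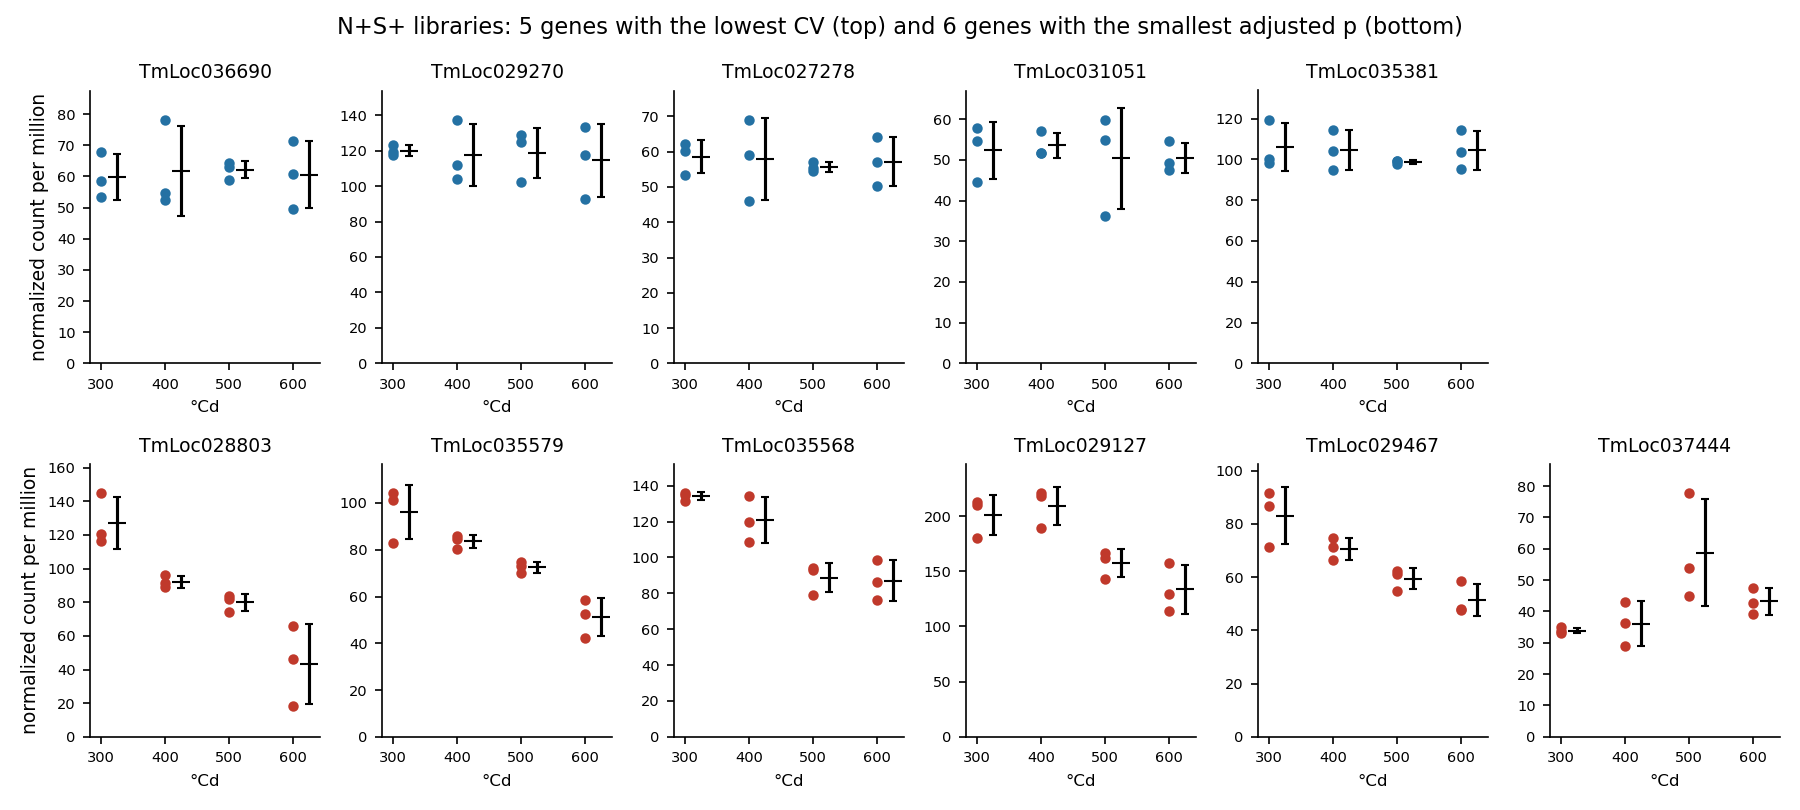
Normalized counts, scaled to library size by the authors (y axis), in each of the 12 N+S+ libraries against stage in °Cd (x axis) for the 5 genes with the lowest N+S+ CV (blue, top) and the 6 genes with the smallest adjusted p across stages (red, bottom); black bars show mean and SD (n = 3) and every y axis starts at 0. The upper 5 overlap at all stages, 5 of the lower 6 have a lower mean at 600 than at 300 °Cd, and TmLoc037444 is highest at 500 °Cd.

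A large N+S+ CV did not always come with a call. TmLoc032392 had the next highest CV after TmLoc028803, 29.8%, with means of 17.3 ± 4.81, 11.1 ± 6.08, 20.9 ± 8.49 and 23.7 ± 4.96 normalized counts (SD, n = 3) from 300 to 600 °Cd. Its replicate CV was 34.3%, and it was not called across stages (adjusted p = 0.083, edgeR quasi-likelihood). TmLoc039713, with an N+S+ CV of 23.7%, had normalized counts of 37.59, 42.08 and 37.80 at 300 °Cd, 25.89, 26.83 and 26.13 at 400 °Cd, 30.33, 40.22 and 39.64 at 500 °Cd, and 32.01, 20.43 and 19.80 at 600 °Cd. Its stage means thus went down, up and down again. Unlike TmLoc032392, TmLoc039713 was called across stages (adjusted p = 0.028 by the same test).

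The 150 genes did not share 1 stage of highest level in N+S+ grain. The highest stage mean fell at 300 °Cd for 44 genes, at 400 °Cd for 42, at 500 °Cd for 32 and at 600 °Cd for 32. Among candidates the end stages were the highest more often, 300 °Cd for 35.5% and 600 °Cd for 34.0%. For the 150 genes those shares were 29.3% and 21.3%. The lowest stage mean fell at 600 °Cd for 59 of the 150 genes (39.3%), near the 41.9% of candidates. It fell at 300, 400 and 500 °Cd for 33, 29 and 29 genes (22%, 19.3% and 19.3%), against 29.1%, 16.7% and 12.3% of candidates.

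In length and in level per kilobase the chosen genes lay close to the candidates. Per kilobase of the deposited length, their mean N+S+ level had a median of 22.3 normalized counts, against 21.7 for the candidates and 1.03 for all accessions, with a range from 3.80 to 651.1. The rule's minimum of 20 applies to the level before division by length. The highest level per kilobase was that of TmLoc036950, at 651.1 over 848 bases, followed by TmLoc027078, at 381.7 over 643 bases. TmLoc032392 and TmLoc032121 were the lowest, at 3.80 over 4812 bases and 3.95 over 4807 bases. TmLoc035200, which ranked 3 for steadiness in N-S- grain, had 332.4 normalized counts per kilobase over 2178 bases.

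The deposited length of the 150 had a median of 2706.5 bases (quartiles 1741 and 3721), against 2667 for the candidates and 1182 for all accessions. The shortest were TmLoc032916, at 333 bases, and TmLoc030738, at 433 bases, and the longest TmLoc029935, at 8752 bases, and TmLoc028252, at 7860 bases. All 4 had N+S+ CVs between 5.24% and 13.6%. Over the 150 genes, length showed almost no relation to the N+S+ CV (Spearman's rho 0.028) or to the level (0.098). The level did: genes with a higher mean N+S+ level before division by length had a lower N+S+ CV (rho = -0.458), while over the candidates there was no such trend (rho = 0.017). These correlations are across genes of the same 12 libraries and are descriptions only. Before division by length the mean N+S+ level of the 150 ran from 16.4 for TmLoc027076 to 723.9 for TmLoc035200. The median was 61.1, at which TmLoc037025 lay, against 53.3 for the candidates. The 90th percentile was 254.3, against 177.9 for the candidates. Of the 150, 6 had an N+S+ mean below 20. TmLoc035517 had 586.1 and TmLoc038583 had 18.2.

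How steady the genes were through N-S- development depended on the scaling of the libraries. As a share of all counts, the 150 genes held 2.80% ± 0.08 at 100 °Cd, 2.38% ± 0.05 at 200 °Cd, 1.75% ± 0.07 at 300 °Cd, 1.59% ± 0.03 at 400 °Cd, 1.70% ± 0.07 at 500 °Cd and 1.65% ± 0.03 at 600 °Cd in N-S- grain (SD, n = 3). Their part of the library thus shrank from 100 to 300 °Cd and was even afterwards. The authors' scale factors, which the deposited values imply, averaged 1.5 at 100 °Cd and 1.19 at 200 °Cd and lay between 0.83 and 0.90 on average at later stages, in the same order as the shares. With library totals alone, the median N-S- CV of the 150 was 25.7% instead of 10.4%, against 32.0% for the candidates. Over 300 to 600 °Cd only, it was 10.1% on that scale, against 21.1% for the candidates. By the same rule, 3 of the 150 (2%) were among the 150 steadiest on library totals. With edgeR's TMM scaling, all 150 were.

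In N+S+ grain, from 300 °Cd on, the scaling moved the CV little, though it moved the split of calls between 300 and 600 °Cd given above. The share of counts was 1.59% ± 0.06, 1.61% ± 0.09, 1.62% ± 0.02 and 1.48% ± 0.09 at the 4 stages (SD, n = 3), the authors' factors ran from 0.941 to 1.05, and the median CV of the 150 was 12.1% with library totals alone, against 11.8% with the deposited scaling. The steadiness measured in N+S+ grain covers no stage before 300 °Cd.

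**Figure D5:**
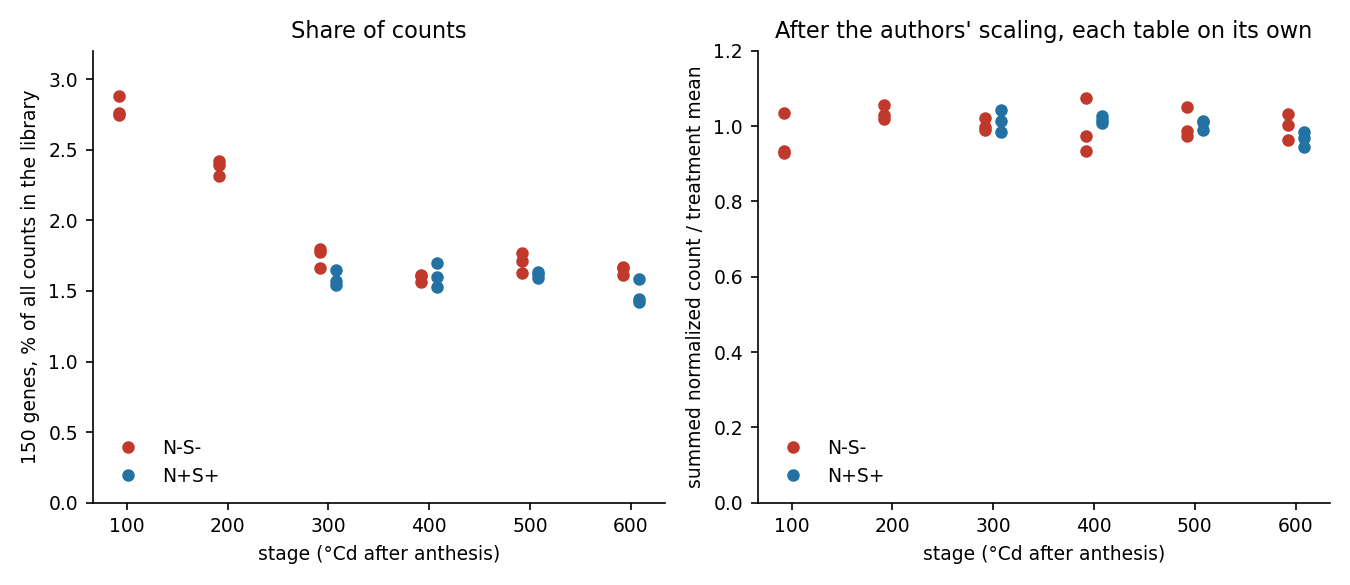
Left, the share of all counts in each library held by the 150 genes (percent, y axis) against stage in °Cd (x axis); right, their summed normalized count in each library divided by the mean of that treatment's libraries, each treatment's table being scaled on its own. The share falls from 2.80% at 100 °Cd to 1.75% at 300 °Cd in N-S- grain, while the scaled sums stay within 0.929 and 1.07 of the treatment's mean.

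Membership of the list was itself uncertain. Leaving out replicate 1, 2 or 3 of every N-S- stage kept 94, 96 and 107 of the 150, and leaving out 500 °Cd, where N-S- replicates agreed least, kept 102. A minimum mean of 40 instead of 20 kept 105. Choosing on 300 to 600 °Cd alone, an alternative chosen after seeing the data, kept 46 of the 150 (30.7%).

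Between treatments the 150 genes differed little. In a joint fit of the 24 libraries of N-S- and N+S+ grain from 300 to 600 °Cd, with the 4 stages averaged, the N-S- minus N+S+ log2 difference had a median of -0.02 and a range from -0.30 to 0.29, with a median SE of 0.10. Here 3 of the 150 were called, all lower in N-S- grain (2%, against 3.24% of all 14723 accessions tested and 1.99% called lower), and 23 had an unadjusted p under 0.05 (15.3%, against 15.2% of all). Both shares were near those of all accessions. The 95% interval lay within 1.5-fold for each of the 150, against 94.7% of candidates and 49.1% of all accessions tested. Most candidates thus met this bound too. The N-S- libraries also chose the genes, for evenness over stages and not for their level against N+S+ grain, so these intervals are a description. The deposited normalized levels of the treatments come from tables scaled apart and were not compared.

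TmLoc035838 had jointly scaled CPM (counts scaled over the libraries of both treatments together) from 106.8 to 183.4 (median 157.0) over the 12 N-S- libraries and from 146.7 to 214.7 (median 190.8) over the 12 N+S+ libraries. All 12 N-S- libraries lay below the N+S+ mean of their stage, and the ranges were apart at 2 of 4 stages. Its log2 difference was -0.29 ± 0.07 (SE), with an adjusted p of 0.0195 (edgeR quasi-likelihood), which was 0.072 when 500 °Cd, where the treatments were on different lanes, was left out of the average.

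TmLoc027078, the gene second in level per kilobase, ran from 179.5 to 280.6 (median 197.1) in N-S- grain and from 220.5 to 301.4 (median 254.7) in N+S+ grain. Of its 12 N-S- libraries 11 lay below the N+S+ mean of their stage, again with ranges apart at 2 of 4 stages. Its log2 difference was -0.30 ± 0.08 (SE), with an adjusted p of 0.0221 by the same test, and 0.053 without the N-S- library of replicate 3 at 400 °Cd.

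TmLoc036562 ran from 86.5 to 112.6 (median 104.4) in N-S- grain and from 100.5 to 141.6 (median 122.7) in N+S+ grain. All 12 N-S- libraries lay below the N+S+ mean of their stage. Its log2 difference was -0.27 ± 0.08 (SE), with an adjusted p of 0.0414 by the same test, and 0.364 with 500 °Cd left out of the fit. This call was kept in 8 of the 24 fits that each left out 1 library, with adjusted p-values up to 0.106. With library totals alone none of these 3 calls held (adjusted p 0.217 for TmLoc027078, 0.257 for TmLoc035838 and 0.413 for TmLoc036562). That scaling moved the median of all accessions to 0.13 on the log2 scale and that of the 150 to 0.12, and it called 8 other genes of the 150, all higher in N-S- grain. The share of all accessions called with that scaling is not given here, so these 8 calls are not read as particular to the 150.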

How the data were processed

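Whole-grain RNA-seq libraries of N-S- and N+S+ grain were used, 3 per group, grouped by the labels. The submitters' processing notes name CASAVA 1.8.4, BWA 0.7.12-r1039 and edgeR. Which genome and read counter were used is not given in the sources used here. Raw counts per accession and a normalized signal make up the deposited tables, per the file headers. The normalized values equal each count divided by a constant for its library, and the authors scaled each treatment's table on its own, as these constants show. The N+S- table supplied only its list of accessions, and the N-S+ table was not used.

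CVs used the deposited normalized values (sample SD). Counts were tested in edgeR 4.0.16 (R 4.3.3) by the quasi-likelihood test after filterByExpr and TMM scaling, with Benjamini-Hochberg adjustment over all accessions tested; calls were made at 0.05. The 12 N+S+ libraries were fitted alone for stages, and 24 libraries jointly for treatments. Intervals are 95%. The code was tested on simulated data. Alternatives included DESeq2 1.42.0, other scaling, no filter, each library left out and other choices of genes. Totals per library were 1344965 to 5356417 counts.

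The genes, lists and tests were chosen with earlier results of these data known. Genes were named by rule: the 5 lowest in N-S- CV and 3 on either side of the list's boundary, the 5 lowest and 5 highest in N+S+ CV, up to 6 with the smallest adjusted p across stages, the 2 at each end of level, level per kilobase and length, those called between treatments, and the gene at the median level. Replicate numbers are shared between groups, so their pairing was checked. Same-numbered N+S+ libraries deviated together with correlations from -0.061 to 0.041 over 18 pairs, and N-S- with N+S+ libraries of a stage from -0.068 to 0.150 over 12 pairs, so the numbers were not taken to pair the samples. The lowest chi-square per degree of freedom between replicates was 2.65 over 30 pairs, so none was counted as a repeat.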

Additional observations from a re-analysis of the deposited data

How the results depend on the processing

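The 6 genes with the smallest adjusted p across stages and the 3 called between treatments kept the sign of their difference under the alternatives run. With library totals only, however, the calls between treatments went from 3 lower to 8 higher in N-S- grain. The median of the 150 went from -0.02 to 0.12 (log2), and that of all accessions tested from -0.02 to 0.13. The number of the 150 genes within 2-fold for every N+S+ stage pair (122) ranged from 110 to 116 with each N+S+ library left out, and the median N+S+ CV (11.8%) from 11.5% to 12.3%; a list chosen on 300 to 600 °Cd only, or with a minimum mean of 40, had a median of 10.8%.

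The 15 genes called across stages became 8 to 20 with libraries left out (8 without replicate 1 or without replicate 2 of 300 °Cd), 28 for a list chosen on unscaled CPM (chosen after seeing the data) and 23 for a minimum mean of 40. The 16 called from 300 to 600 °Cd became 12 to 22, 34 and 33 in that order, and 19% for the first 300 genes of the ranking. The 3 called from 300 to 400 °Cd became 1 in the fit to 24 libraries, with library totals only and with no filter, 5 for the unscaled choice, 1 to 3 with libraries left out, and 1% of the first 300. The 2 called from 400 to 500 °Cd became 4 by DESeq2, 0 in the fit to 24 libraries and for the minimum of 40, 1 for the list chosen on 300 to 600 °Cd, 0 to 4 with libraries left out, and 0.667% of the first 300. The 1 called from 500 to 600 °Cd became 2 by DESeq2, with no filter and for the minimum of 40, 3 with library totals, with the deposited scaling, for the unscaled choice and for the list chosen without 500 °Cd, 0 for the list chosen on 300 to 600 °Cd, 0 to 5 with libraries left out, and 2% and 1.33% of the first 300 and the first 75. The 3 called between treatments became 7 by DESeq2, 8 with library totals only, 1 without 500 °Cd in the average, and 1 to 5 with libraries left out (1 without N-S- replicate 3 of 400 °Cd). The cause of these shifts was not tested. Where the fit itself changed, the share of all accessions called is not given here. Those shifts are therefore not read as particular to the chosen genes.

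With the replicate number as a block, the numbers called were 14 across stages, 2, 2, 2 and 16 from 300 to 400, 400 to 500, 500 to 600 and 300 to 600 °Cd, and 5 between treatments, and 120 genes met the 2-fold bound. The 28 genes that missed the 2-fold bound had a median summed count of 902.5, against 2350.5 for the others, and 4 of the 28 were called. The part of depth in missing the bound was not tested.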
